A study of Mus musculus with 8 samples.

Results

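The Tox family comprises 4 genes, *Tox*, *Tox2*, *Tox3* and *Tox4*, which encode nuclear proteins that share a single HMG box, a fold that binds DNA by its shape. The members described here are the rows of the deposited expression table whose symbol is one of these 4, and 3 of the 24303 genes in the table met that rule: *Tox*, *Tox3* and *Tox4*. *Tox2* was not analysed here. RNA-Seq had been made from P14 CD8 T cells, taken from the spleens of uninfected transgenic mice on a C57BL/6 background that were at least 8 weeks old. These cells all carry 1 T cell receptor, specific for the GP33 peptide of LCMV, so each result concerns a single specificity in culture. All cells were activated with plate-bound anti-CD3 and anti-CD28 for 2 days, pooled, and then kept in medium with IL-2 and IL-15. The Effector condition is day 7 of this culture, and a flow cytometry legend of the study marks day 7 Effector cells as "7d-stim". The labels give no day of last stimulation for the Effector libraries. Acute-2d cells received no GP33 after activation and were collected on day 19. Acute-7d cells were given 0.3 µg/mL GP33 until day 7, then rested without peptide, and were collected on day 19. T_Dysf cells received GP33 repeatedly up to day 19 together with 5 ng/mL TGF-β1 from day 7, so the effects of longer antigen exposure and of TGF-β1 cannot be told apart in them. The cells were sorted as viable CD8 T cells, and each of the 4 conditions has 2 libraries. The sources used here do not say which libraries share a mouse or culture, and the sex-linked genes given below show that not all come from a single mouse. The p-values below therefore measure only the spread between these libraries.

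In CD8 T cells, *Tox* is switched on through calcineurin and NFAT when the T cell receptor is engaged, and it is known for driving and maintaining the exhausted state under chronic antigen, with high inhibitory receptors and altered chromatin. It rises briefly after acute activation as well, and it is needed earlier in the thymus for CD4 T cell development. *Tox2* is closest to it in function and acts in exhausted and follicular helper T cells. *Tox3* is best known from neurons and breast epithelium, and *Tox4* is a broadly expressed partner of the PTW/PP1 phosphatase complex, which acts on RNA polymerase II.

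How far apart the 3 genes lie in sequence bears on whether their reads can be told apart. The coding windows of 150 bases below are the stretch at which the 3 main transcripts are most alike, aligned in frame without gaps, and they overlap the sequence that encodes the start of the HMG box. They come from the mouse genome GRCm38 and are written 5′ to 3′ on the coding strand. Capitals mark bases that differ from *Tox*.
Tox: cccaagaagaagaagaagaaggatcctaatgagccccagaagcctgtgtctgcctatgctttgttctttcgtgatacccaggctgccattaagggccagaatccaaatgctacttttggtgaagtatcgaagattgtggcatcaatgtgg
Tox3: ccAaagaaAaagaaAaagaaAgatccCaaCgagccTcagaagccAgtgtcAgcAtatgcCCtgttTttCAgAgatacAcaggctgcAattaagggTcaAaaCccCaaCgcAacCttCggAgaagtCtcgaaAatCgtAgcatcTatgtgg
Tox4: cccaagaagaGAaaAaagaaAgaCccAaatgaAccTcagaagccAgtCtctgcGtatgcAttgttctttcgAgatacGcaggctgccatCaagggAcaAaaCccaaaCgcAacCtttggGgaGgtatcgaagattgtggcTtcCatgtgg

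The *Tox* window lies at chr4:6722165-6722314 on the minus strand, in exon 5 of its main transcript. The *Tox3* window lies at chr8:90254302-90254451 on the minus strand, in exon 5, and differed from *Tox* at 32 bases (78.7% identical). The *Tox4* window lies at chr14:52287355-52287504 on the plus strand, in exon 6, and differed from *Tox* at 25 bases (83.3% identical). *Tox3* and *Tox4* differed from each other at 30 bases. Over all annotated transcripts of each gene, the longest identical run was 24 bases between *Tox* and *Tox3*, 19 between *Tox* and *Tox4*, and 15 between *Tox3* and *Tox4*. The longest stretch that any pair shares was therefore 24 bases. Within the windows above, the longest run identical to *Tox* was 8 bases in *Tox3* and 17 in *Tox4*.

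The genes differ much in size. *Tox* (ENSMUSG00000041272) spans chr4:6686353-6991557, and its main transcript of 3961 bases has 9 exons. *Tox3* (ENSMUSG00000043668) spans chr8:90247040-90348343, with 3356 bases in 7 exons. *Tox4* (ENSMUSG00000016831) spans chr14:52279146-52296401, with 5350 bases in 10 exons. Genes on the opposite strand overlap 2 of them. *Gm11802*, an antisense RNA, shares 260 exon bases with *Tox*, which is 3.42% of the exon bases of *Tox*, and was not analysed here. *Mettl3* shares 933 exon bases (13.4%) with *Tox4*, and *Rab2b* shares 195 (2.81%). Whether the counting used strand is not given in the sources used here, so reads in those stretches cannot be assigned to 1 strand.

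Reads on genes numbered from 19382147 to 24856224 per library, as judged from the most frequent low value in each, which was taken as the worth of 1 read. The values are normalized counts, that is estimated read counts that the authors divided by a median-ratio size factor for each library. A value of 3 reads was used as the floor of detection, between 2.59 and 3.35 normalized counts, and this floor and the counting intervals given below cover counting error only. The 7 genes listed for CD8 T cells (*Cd8a*, *Cd8b1*, *Cd3d*, *Cd3e*, *Cd3g*, *Cd2* and *Cd247*) were all present. They summed to 122000 to 126000 normalized counts in the T_Dysf libraries and 61600 to 78000 in the other 6. Not all were higher in T_Dysf. Mean *Cd2* was 3460 in T_Dysf against 6650 to 8600 in the other conditions, and mean *Cd247* was 3950 against 3740 to 4110. B cell markers (6 of 6 in the table) summed to 163 to 177 in T_Dysf, 66.9 to 86.8 in Acute-7d, 119 to 137 in Acute-2d and 158 to 196 in Effector. Over all libraries, myeloid markers (6 of 6) summed to between 280 and 664, dendritic cell markers (4 of 5) to between 115 and 568, and erythroid markers (4 of 5) to between 25.5 and 47.4. The NK and innate lymphoid list (6 of 6, with *Eomes* and *Gata3*, which CD8 T cells also express) summed to between 1560 and 2270 in T_Dysf, 4490 and 6490 in Acute-7d, and 2570 and 3680 in the other 4 libraries. The part of these differences in the results below was not tested. The CD4 T cell list (4 of 4) summed to between 1060 and 1640, while *Cd4* itself stayed between 1.01 and 13.0. Library names carry the prefix RESUB in both Effector libraries and in Acute-7d replicate 1. The same 3 libraries had *Xist* between 53.5 and 115 and 4 Y-linked genes summing to between 4.64e+03 and 5.58e+03, against 2.19e+04 to 3.04e+04 and 0 to 13.8 in the other 5. Effector thus has this pattern in both libraries, Acute-7d in replicate 1 alone, and T_Dysf and Acute-2d in none. The study used male and female mice. Donor sex and condition therefore cannot be told apart in Effector against T_Dysf or Acute-2d, other than through Acute-7d. In T_Dysf replicate 1, 53.3% of values under 1000 reads were whole reads to within 0.02, against 73.2% to 75.8% in the other 7, and 2580 of the 3817 pseudogene entries were above 0 in it, against 3068 to 3153 in the other 7.

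*Tox*, the member known from T cell exhaustion, was highest in Effector cells, intermediate in T_Dysf cells and lowest in both acutely stimulated conditions. The Effector libraries held 403 and 690 normalized counts, and the T_Dysf libraries 245 and 234. The Acute-2d libraries held 85.3 and 55.1, and the Acute-7d libraries 51.3 and 107. No Effector or T_Dysf library overlapped with an acutely stimulated one, and no T_Dysf library reached the lower Effector library. The 2 T_Dysf libraries were the most alike, with a squared difference 0.296 times what read sampling alone gives, while the Effector pair differed by 77.8 times, the Acute-7d pair by 18.8 times and the Acute-2d pair by 6.13 times. The ordering by group mean was 547 ± 203 in Effector, 239.5 ± 7.88 in T_Dysf, 79.2 ± 39.4 in Acute-7d and 70.2 ± 21.4 in Acute-2d (SD, n = 2 each). In sorted but unseparated cells, fewer cells that express a gene and less RNA per cell cannot be told apart.

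**Figure D1:**
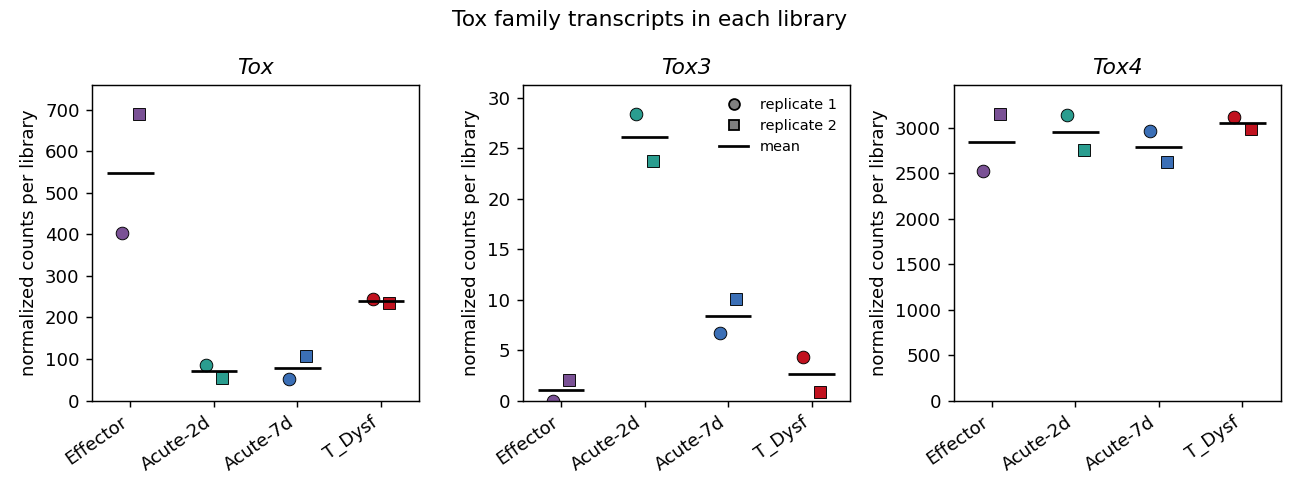
Normalized counts of *Tox*, *Tox3* and *Tox4* in each of the 8 libraries, on a linear axis of its own for each gene. Circles are replicate 1, squares replicate 2 and bars the mean of 2; *Tox* is highest in Effector (403 and 690), *Tox3* in Acute-2d (28.4 and 23.8), and *Tox4* lies between 2528 and 3154 in all 8.

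Effector cells had 6.9-fold more *Tox* than Acute-7d cells and 7.79-fold more than Acute-2d cells, as ratios of means. All differences were tested with limma with Benjamini-Hochberg adjustment over all 24303 genes, on log2(normalized count + 1), and a gene was called when its adjusted p was under 0.05 and its fold change at least 2. *Tox* was called in Effector against Acute-7d, at a log2 fold change of 2.81 (SE 0.47, 95% interval 1.60 to 4.02, adjusted p = 0.0266 with limma), a comparison in which 8.06% of all genes were called and 4.18% were called higher in Effector. It was also called in Effector against Acute-2d, at 2.93 (SE 0.47, interval 1.71 to 4.14, adjusted p = 0.0233 with limma), where 8.78% of genes were called and 4.31% were called higher in Effector. Both calls rest on few libraries. The call against Acute-7d ended when Effector replicate 2, Acute-7d replicate 1, either Acute-2d library or either T_Dysf library was left out (log2 fold changes 2.29 to 2.81, adjusted p from 0.0511 to 0.0976 with limma). The call against Acute-2d ended without Effector replicate 2, either Acute-2d library or either T_Dysf library (2.54 to 3.24, adjusted p from 0.0602 to 0.0892 with limma). Both Effector libraries carry the RESUB prefix and neither Acute-2d library does, and a term for the prefix ended the call against Acute-2d (3.97, adjusted p = 0.098 with limma). Fitted on the 2 groups compared alone, adjusted p was 0.135 against Acute-7d and 0.108 against Acute-2d with limma. Among the 3 RESUB libraries alone, the 2 Effector libraries held 7.85 and 13.4 times the *Tox* level of Acute-7d replicate 1.

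T_Dysf cells had 3.03-fold more *Tox* than Acute-7d cells and 3.41-fold more than Acute-2d cells, as ratios of means, and neither difference passed the test over all genes. Against Acute-7d, the comparison that sets chronic against withdrawn stimulation at the same day, the log2 fold change was 1.68 (SE 0.47, 95% interval 0.47 to 2.89) with an unadjusted p of 0.0164 and an adjusted p of 0.102 with limma. An unadjusted p under 0.05 was reached by 26.1% of all genes in this comparison and a call by 5.57%. Against Acute-2d the log2 fold change was 1.79 (interval 0.58 to 3.0, adjusted p = 0.08 with limma), where 7.35% of genes were called and 3.14% were called higher. Both differences passed when the model was refitted on genes whose mean reached 50 normalized counts, with an adjusted p of 0.0281 and 0.0192 with limma. They likewise passed among genes whose highest library reached 50 normalized counts, with 0.0284 and 0.0192 with limma. The study's methods apply a maximum of 50 to counts before normalization. The fold changes themselves do not alter under these filters, while the unadjusted p of *Tox* fell from 0.0164 to 0.00498 against Acute-7d and from 0.0129 to 0.00353 against Acute-2d under the filter on the mean, so the refit changed more than the number of genes adjusted over. Among the 5 libraries without the RESUB prefix, T_Dysf held 2.19 to 2.29 times the *Tox* of Acute-7d replicate 2 and 2.74 to 4.45 times that of the Acute-2d libraries. Leaving out Acute-7d replicate 1 gave a log2 fold change of 1.15 against Acute-7d, and without Acute-7d replicate 2 it was 2.20.

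T_Dysf cells had less *Tox* than Effector cells in every pair of libraries, with Effector 2.28-fold higher as a ratio of means. The log2 fold change was -1.14 (SE 0.47, 95% interval -2.35 to 0.08, adjusted p = 0.178 with limma), which was not a call, in a comparison where 9.22% of genes were called, 4.75% as lower and 4.47% as higher in T_Dysf. All Effector libraries carry the RESUB prefix and no T_Dysf library does, so the prefix and the condition cannot be told apart in this comparison other than through Acute-7d. With a term for the prefix the log2 fold change was -2.18 (adjusted p = 0.207 with limma). The 2 acutely stimulated conditions had overlapping *Tox* levels, with a log2 fold change of 0.11 for Acute-7d over Acute-2d and an interval of -1.10 to 1.32, in a comparison where 0.169% of genes were called. That interval does not show that they are alike, since it includes a 2-fold difference in either direction. In the test of any difference among the 4 conditions, *Tox* had an adjusted p of 0.0316 with limma, and 20.2% of all genes passed it. This p went above 0.05 in 7 of the 8 fits that left out a library (0.0544 to 0.0989), the exception being Acute-7d replicate 2 (0.0427).

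*Tox3* had a different order, being highest in Acute-2d cells and at or near the floor in Effector and T_Dysf cells. The Acute-2d libraries held 28.4 and 23.8 normalized counts (27 and 22 reads), and the Acute-7d libraries 6.69 and 10.1 (6 and 10 reads). The T_Dysf libraries held 4.32 and 0.89 (5 reads and 1 read), and the Effector libraries 0 and 2.01 (0 and 2 reads). Every Acute-2d library lay above every other library and every Acute-7d library above every T_Dysf and Effector library. The difference between replicates was within 0.395 to 2.6 times read sampling in each condition.

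Because *Tox3* was counted in few reads, its ratios are given with their exact counting intervals over the summed reads of each condition. Acute-2d exceeded T_Dysf 9.94-fold (95% interval 4.25 to 28.4, 49 against 6 reads) and Acute-7d 3.08-fold (1.72 to 5.8, 49 against 16 reads). Acute-7d exceeded T_Dysf 3.23-fold (1.2 to 10.1). Effector had no library above the floor. The mean of Acute-2d was 9.07 times that floor and the mean of Acute-7d 2.92 times, ratios that leave out the counting error of these means. Over the Effector reads themselves, the counting interval was 7.17 to 232 for Acute-2d (49 against 2 reads). For Acute-7d it was 2.08 to 79.5 (16 against 2 reads). *Tox3* was called in Effector against Acute-2d alone, at a fitted log2 fold change of -3.96 (SE 0.75, adjusted p = 0.0326 with limma), a size that depends on the pseudocount. That call ended in each of the 8 fits that left out a library, with an adjusted p from 0.0516 to 0.129 with limma. In T_Dysf against Acute-2d the log2 fold change was -3.09 (95% interval -5.03 to -1.15, adjusted p = 0.067 with limma) and in T_Dysf against Acute-7d it was -1.54 (-3.49 to 0.40, adjusted p = 0.279 with limma). In the test of any difference among the 4 conditions *Tox3* had an adjusted p of 0.0589 with limma.

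Markers of the epithelial and neuronal cells in which *Tox3* is known were read beside it. Of the 6, 5 were in the table, and their summed level was 894 to 1260 normalized counts in Acute-2d, 1240 to 1990 in Acute-7d, 78.2 to 180 in Effector and 12500 to 13400 in T_Dysf. *Cdh1*, the adhesion protein E-cadherin, held 12261 and 13187 of the T_Dysf sums. The T_Dysf libraries, with the highest sums, had *Tox3* at 0.89 and 4.32. As the sums in T_Dysf are nearly all *Cdh1*, they cannot show whether epithelial or neuronal cells were present. *Epcam* (102 and 87.2) and *Krt18* (106 and 85.4) were also highest in T_Dysf. Whether such cells contribute to the *Tox3* reads was not tested. The neuronal genes were low throughout, with *Tubb3* between 7.12 and 37.4 and *Snap25* between 1.12 and 6.23.

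*Tox4*, the broadly expressed member, was the most abundant of the 3 and nearly level across conditions. It held 2528 and 3154 normalized counts in Effector, 3140 and 2756 in Acute-2d, 2960 and 2618 in Acute-7d, and 3114 and 2986 in T_Dysf. All 4 conditions overlapped, and *Tox4* stood between the percentiles 92.5 and 94.1 of all genes in each library. Its log2 fold changes ran from -0.08 to 0.13 over the 6 comparisons with an SE of 0.14, and none was called. In T_Dysf against Acute-7d the log2 fold change was 0.13 with a 95% interval of -0.22 to 0.49, which leaves out a 2-fold difference in either direction. The adjusted p for any difference among the 4 conditions was 0.859 with limma. The log2 fold changes of 0.05 in T_Dysf against Acute-2d and 0.02 in Effector against Acute-7d took the other sign under 75th percentile scaling (-0.07 and -0.11). *Mettl3*, an RNA methyltransferase gene on the opposite strand that overlaps the end of *Tox4*, ranged from 624 to 845 normalized counts.

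**Figure D2:**
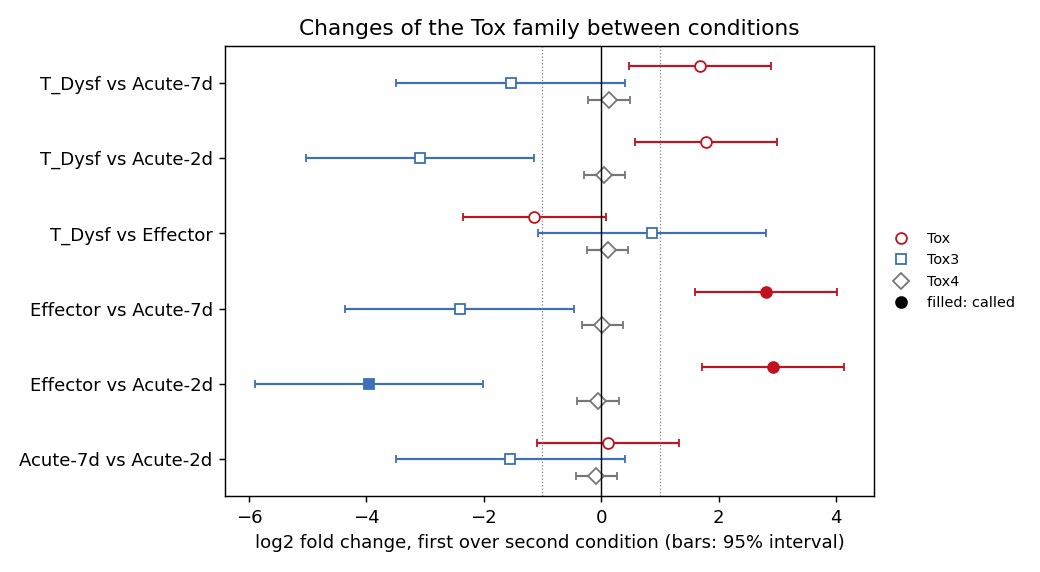
Log2 fold changes of *Tox* (circles), *Tox3* (squares) and *Tox4* (diamonds) in the 6 comparisons, first condition over second, with 95% intervals from limma; dotted lines mark 2-fold and filled symbols are calls. The called values are *Tox* in Effector against Acute-7d (2.81) and Acute-2d (2.93) and *Tox3* in Effector against Acute-2d (-3.96), and *Tox4* stays between -0.08 and 0.13.

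Levels of the 3 genes can be compared with each other only per length. Per kilobase of the main transcript, mean *Tox* was 138 normalized counts in Effector, 60.5 in T_Dysf, 20.0 in Acute-7d and 17.7 in Acute-2d, while *Tox4* was 531, 570, 521 and 551 in the same order. *Tox3* per kilobase was 7.78 in Acute-2d, 2.50 in Acute-7d, 0.776 in T_Dysf and 0.299 in Effector. *Tox* therefore made up 17.7% and 22.8% of the summed level per kilobase of the 3 genes in the Effector libraries, 9.59% and 9.57% in T_Dysf, 2.28% and 5.2% in Acute-7d, and 3.49% and 2.59% in Acute-2d. *Tox4* made up between 77.1% and 97.4% in every library. *Tox3* reached 1.37% at most, in Acute-2d replicate 1.

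The genes whose levels most resembled those of *Tox* over the 8 libraries were looked up among the 4634 genes with a mean of 50 normalized counts or more and a 2-fold range of condition means. The 5 nearest, by Pearson's r of log2 values, were *Cip2a* (0.998), *Cdc6* (0.995), *Wdr62* (0.995), *Ect2* (0.995) and *Phf19* (0.994). *Cdc6* licenses DNA replication, *Ect2* is required for cytokinesis, *Wdr62* acts at the spindle poles, *Cip2a* inhibits the phosphatase PP2A, and *Phf19* is a Polycomb accessory protein. These r values describe 8 libraries that fall into 4 conditions of 2, so they rest largely on the differences between conditions. *Cdc6* held 820 and 1843 normalized counts in Effector, 508 and 435 in T_Dysf, 170 and 107 in Acute-2d, and 81.4 and 178 in Acute-7d. As for *Tox*, replicate 2 of *Cdc6* was the higher one in Effector and Acute-7d, and replicate 1 in Acute-2d and T_Dysf. *Phf19* went the other way in T_Dysf (456 and 485). The genes were picked by their r to *Tox* over these same libraries, so a shared order follows from that choice and is no separate support. *Cip2a* had condition means of 1311 in Effector, 607 in T_Dysf, 216 in Acute-7d and 212 in Acute-2d.

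**Figure D3:**
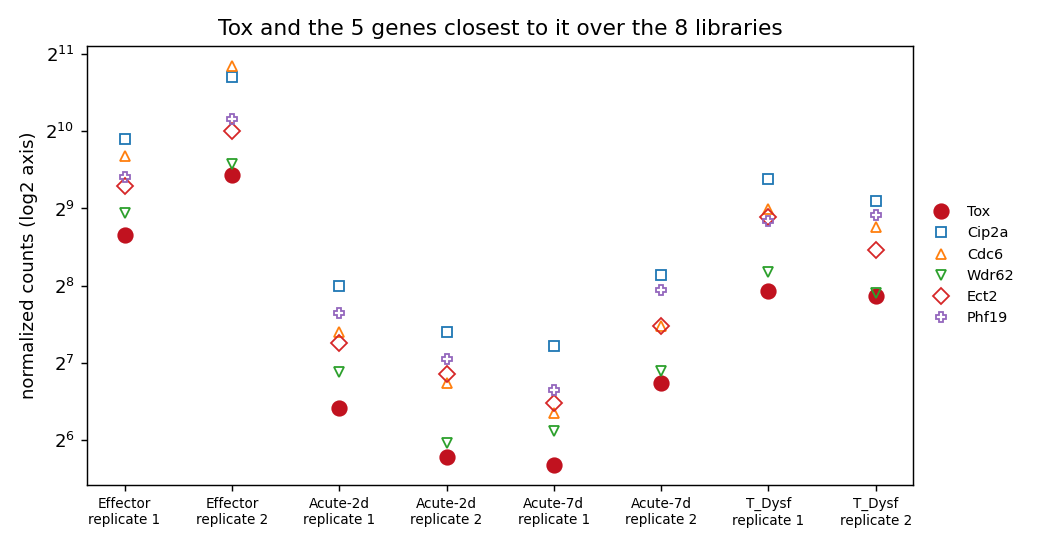
Normalized counts of *Tox* (filled circles) and the 5 genes with the highest Pearson's r to it, in each of the 8 libraries on a log2 axis. The 6 genes share the order of libraries within Effector, Acute-2d and Acute-7d, which follows from picking them by that r. *Tox* is at 403 and 690 in Effector and 51.3 and 107 in Acute-7d.

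Genes related to *Tox* were then read in lists by their role, starting with the signals known to induce it, which are calcineurin subunits, NFAT factors, the NR4A and EGR families, and the AP-1 partners *Batf* and *Irf4*. In T_Dysf against Acute-7d, 2 of these 13 genes were called, both higher, where 5.57% of all genes were called and 2.54% were called higher. They were the nuclear receptor genes *Nr4a2* (log2 fold change 3.14, SE 0.46, adjusted p = 0.024 with limma) and *Nr4a1* (2.58, SE 0.43, adjusted p = 0.0323 with limma). *Nr4a2* held 1368 and 1282 normalized counts in the T_Dysf libraries, 185 and 121 in Acute-7d, 165 and 73.4 in Acute-2d, and 348 and 512 in Effector, so it was highest in T_Dysf rather than in Effector, where *Tox* was highest. The difference in *Nr4a2* between T_Dysf and Effector was not a call (1.65, adjusted p = 0.0786 with limma).

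None of the 6 calcineurin and NFAT genes was called in the same comparison, and their log2 fold changes ran from -0.52 for *Nfatc1* to 0.28 for *Ppp3cb*. In Effector against Acute-7d, *Nr4a1* (2.25, adjusted p = 0.0348 with limma) and *Irf4* (1.39, adjusted p = 0.0388 with limma), an interferon regulatory factor that pairs with BATF, were called, 2 of 13 beside 8.06% of all genes. In T_Dysf against Effector, *Irf4* alone was called, lower in T_Dysf at -1.30 (adjusted p = 0.0432 with limma). The list had 1 call in T_Dysf against Acute-2d (*Nr4a2*, 3.57), where 7.35% of all genes were called. It had none in Effector against Acute-2d (8.78% of all genes) or in Acute-7d against Acute-2d (0.169%). In these 2 comparisons, 10 and 0 of the 13 had an unadjusted p under 0.05 with limma. The share of all genes at that p was not computed for them, so no reading is given to these counts. The median log2 fold change of the list was 0.28 in T_Dysf against Acute-7d and 0.40 in Effector against Acute-7d, with a median of 0.00 over all genes. Without T_Dysf replicate 1, without Acute-7d replicate 1 or with a term for the RESUB prefix, no gene of this list was called in T_Dysf against Acute-7d, Effector against Acute-7d or T_Dysf against Effector, so the *Irf4* and *Nr4a1* calls were lost as well. Calls over all genes in these fits were between 1.56% and 6.92%. *Nr4a2* against Acute-2d was lost without T_Dysf replicate 1.

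Surface molecules of exhaustion, which *Tox* is known to promote in chronic infection, were the list with the most calls. In T_Dysf against Acute-7d, 8 of the 11 in the table were called, all higher, against 2.54% of all genes, and the median log2 fold change was 2.44 (0.00 over all genes). *Cd200*, a ligand that restrains myeloid cells, had the largest at 3.92 (SE 0.25, adjusted p = 0.00392 with limma), followed by *Cd244a*, which encodes the receptor 2B4 (2.93, adjusted p = 0.0299 with limma), and *Cd38*, an NAD-consuming enzyme (2.91, adjusted p = 0.021 with limma). *Pdcd1*, which encodes PD-1, held 3754 and 4022 normalized counts in T_Dysf and 4017 and 3043 in Effector, against 505 and 598 in Acute-7d and 352 and 462 in Acute-2d. Between T_Dysf and Effector the log2 fold change of *Pdcd1* was 0.15 (95% interval -0.37 to 0.67, adjusted p = 0.681 with limma), and that of *Tox* was -1.14. The 3 that were not called were *Ctla4* (-0.70), *Cd160* (-0.18) and *Entpd1* (0.79).

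In T_Dysf against Acute-2d, 9 of the 11 were called higher, beside 3.14% of all genes, and *Ctla4* lower (-1.43). In Effector against Acute-7d, 5 of 11 were called, all higher, beside 4.18% of all genes, among them *Cd200* (3.07), *Pdcd1* (2.67) and *Tigit* (1.80), with a median of 0.92, and 4 were called higher against Acute-2d, beside 4.31%. In T_Dysf against Effector, *Cd244a* (2.85), *Cd38* (2.49) and *Entpd1* (1.14) were called higher and *Cd160* (-1.11) lower, with a median of 0.87, where 9.22% of all genes were called. No gene of the list was called between Acute-7d and Acute-2d, where 0.169% of all genes were called. In that comparison 3 had an unadjusted p under 0.05 with limma, and the share of all genes at that p was not computed. These counts depend on the libraries and the model, and so does the share of all genes called. Fewer of the list were called in T_Dysf against Acute-7d without T_Dysf replicate 1 or without Acute-7d replicate 1. Fewer of all genes were called in those fits as well. Without T_Dysf replicate 1, the medians were 2.51 in T_Dysf against Acute-7d and 0.92 in Effector against Acute-7d. They were 3.29 in T_Dysf against Acute-2d and 0.88 in T_Dysf against Effector. Without Acute-7d replicate 1, the median in T_Dysf against Acute-7d was 2.29. With a term for the prefix, 2 of 11 were called in T_Dysf against Acute-7d, beside 2.23% of all genes (median 2.29). In Effector with that term, 2 of 11 were called against Acute-7d, beside 3.32%, and 0 of 11 against Acute-2d, beside 1.44% (median 1.19). In T_Dysf with that term, 0 were called against Effector, beside 1.59%. Against Acute-2d, 7 were called higher and 1 lower, beside 5.67%.

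**Figure D4:**
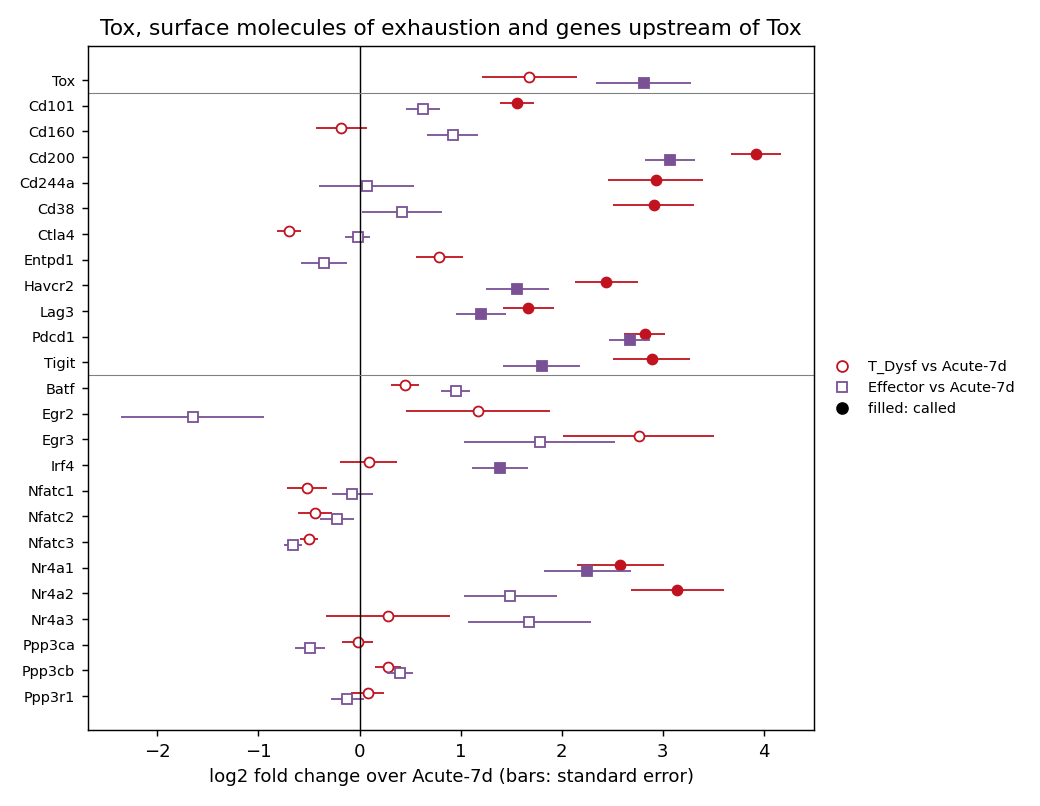
Log2 fold changes over Acute-7d for T_Dysf (circles) and Effector (squares), with standard errors, of *Tox*, 11 surface molecules of exhaustion and 13 genes that act upstream of *Tox*; filled symbols are calls. *Tox* is further right in Effector (2.81) than in T_Dysf (1.68), while *Cd38* is at 0.42 in Effector and 2.91 in T_Dysf, and both comparisons share the Acute-7d libraries.

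HMG-box genes outside the family, the nearest relatives of *Tox* by domain, numbered 20. The T cell factors *Tcf7*, which encodes TCF-1 and marks memory and progenitor cells, and *Lef1* were called lower in T_Dysf than in Acute-7d, at log2 fold changes of -5.97 (adjusted p = 0.0114 with limma) and -3.94 (adjusted p = 0.00226 with limma). *Tcf7* held 161 and 122 normalized counts in the T_Dysf libraries, 9991 and 7789 in Acute-7d, 17888 and 18473 in Acute-2d, and 2178 and 8065 in Effector, so its T_Dysf libraries were the lowest of the 8. No other of the 20 was called in that comparison, where 3.03% of all genes were called lower. The chromatin protein genes *Hmgb3* (1.96) and *Hmgb2* (1.95) were called higher in Effector than in Acute-7d, and *Hbp1*, a repressor of cell cycle genes, lower (-1.15). In that comparison 8.06% of all genes were called. In T_Dysf against Effector 4 of the 20 were called, all lower, beside 4.75% of all genes called lower, and these were *Tcf7* (-4.89), *Lef1* (-3.64), *Hmgb2* (-1.52) and *Hmgb3* (-1.50). The median over the 20 was -0.18 in T_Dysf against Acute-7d and -0.52 in T_Dysf against Effector. With the prefix term, 1 of the 20 was called in T_Dysf against Acute-7d, beside 2.23% of all genes, and 1 in T_Dysf against Effector, beside 1.59%. In Effector against Acute-7d it was 0, beside 3.32%. Without T_Dysf replicate 1 or without Acute-7d replicate 1, fewer of the 20 were called in these comparisons. Fewer of all genes were called in those fits as well.

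Complexes that partner the family had call counts near the share over all genes. None of the 5 PTW/PP1 genes, which encode the complex that TOX4 joins, was called in any of the 6 comparisons. In these, 0.169% to 9.22% of all genes were called, and the medians of the list ran from -0.25 to 0.41. Up to 3 of the 5 had an unadjusted p under 0.05 in a comparison with limma. The share of all genes at that p was computed only for T_Dysf against Acute-7d, at 26.1%. *Ppp1r10*, the scaffold of that complex, held between 749 and 1447 normalized counts and *Wdr82*, which binds RNA polymerase II, between 3628 and 5663. Of the 10 genes of the HBO1 acetyltransferase complex, which TOX binds, only *Ing4*, a reader of methylated histone H3, was called, lower in Effector than in Acute-7d (-1.0, adjusted p = 0.0481 with limma) and than in Acute-2d (-1.11, adjusted p = 0.0376 with limma), 1 of 10 beside 8.06% and 8.78% of all genes. Both *Ing4* calls were lost without T_Dysf replicate 1, without Acute-7d replicate 1 and with the prefix term. Fewer of all genes were called in those fits as well. The catalytic subunit gene *Kat7* ranged from 1826 to 2280 normalized counts over the 8 libraries.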

How the data were processed

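The authors aligned reads from polyA-selected libraries with STAR to mm10, quantified them to RefSeq transcripts in Partek Flow, and applied median-ratio normalization with DESeq2 (tool and build names also per the labels, with no versions). The deposited values are a signal on a continuous scale, estimated counts divided by a size factor. The methods of the study state a filter on features whose maximum is under 50, which the table does not show. Between 53.3% and 75.8% of values under 1000 reads were whole within 0.02, so count models were not fitted.

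limma 3.58.1 in R 4.3.3 (lmFit, eBayes with trend) was run two-sided on log2(normalized count + 1), all 24303 genes and 8 libraries, 4 group means, no covariate. Its fold changes understate changes of genes with low values. Positions and sequences came from GRCm38 with GENCODE vM21. Tables and figures used Python 3.11.15, pandas 2.3.3, scipy 1.17.1 and matplotlib 3.10.9.

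The members and lists were chosen with earlier results of these data known. Named genes were the members, the 3 largest called changes of each list in T_Dysf against Acute-7d, T_Dysf against Effector and Effector against Acute-7d, and the 5 genes nearest to *Tox*. Other list genes (*Cd160*, *Ctla4*, *Kat7*, *Ppp1r10*, *Wdr82*, *Hmgb3* in T_Dysf, *Sh2d1a*, *Il21* and genes at the ends of a range) were named after their values were seen.

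Alternatives were another pseudocount (0.1 or 10), filters (mean or maximum of at least 50), 75th percentile or total scaling, a fit of the 2 groups alone, a replicate block, a term for the RESUB prefix, and leaving out each library. The table without its 3817 pseudogene entries, and list counts without T_Dysf replicate 1, without Acute-7d replicate 1 or with the prefix term, were added after the data were seen.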

Additional observations from a re-analysis of the deposited data

How the results depend on the processing

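Each of the 8 libraries decides some calls. A condition left with 1 library adds nothing to the estimate of spread, and why the calls changed was not tested. Over the fits that left out a library, genes called ran from 61 to 376 in Acute-7d against Acute-2d, 553 to 2363 in Effector against Acute-2d, 378 to 2156 in Effector against Acute-7d, 656 to 1867 in T_Dysf against Acute-2d, 422 to 1534 in T_Dysf against Acute-7d, and 585 to 2484 in T_Dysf against Effector. In the same fits the log2 fold change of *Tox* ran from -0.41 to 0.64 in Acute-7d against Acute-2d, 2.54 to 3.31 in Effector against Acute-2d, 2.29 to 3.34 in Effector against Acute-7d, 1.48 to 2.10 in T_Dysf against Acute-2d, 1.15 to 2.20 in T_Dysf against Acute-7d and -1.52 to -0.75 in T_Dysf against Effector, and the adjusted p of its test of any difference from 0.0427 to 0.0989. *Tox3* in Effector against Acute-2d ran from -4.75 to -3.17. *Tox4* ran from -0.17 to 0.01 in Acute-7d against Acute-2d, -0.22 to 0.10 in Effector against Acute-2d, -0.14 to 0.18 in Effector against Acute-7d, -0.04 to 0.15 in T_Dysf against Acute-2d and -0.05 to 0.27 in T_Dysf against Effector.

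Filters that keep genes whose mean or highest value reaches 50 added the calls of *Tox* in T_Dysf against Acute-7d (1.68) and Acute-2d (1.79), with both fewer genes adjusted over and a smaller unadjusted p of *Tox* in the refitted model (0.00346 to 0.00498 against 0.0164 and 0.0129 with limma), and left 1 gene called in Acute-7d against Acute-2d in place of 41. *Tox3* has no value under either filter. Fits of 2 groups alone ended the calls of *Tox* in Effector against Acute-7d (2.81) and Acute-2d (2.93) and of *Tox3* (-3.96), and called 147 genes in Acute-7d against Acute-2d, 465 in T_Dysf against Effector, 155 in Effector against Acute-7d and 235 in Effector against Acute-2d. The term for the RESUB prefix ended the calls of *Tox* (3.97) and *Tox3* (-3.43) in Effector against Acute-2d, gave *Tox4* -0.07 in Effector against Acute-7d and *Tox* an adjusted p of 0.0584 over the 4 conditions, and called 168, 386, 808, 350 and 541 genes in Acute-7d against Acute-2d, T_Dysf against Effector, Effector against Acute-7d, Effector against Acute-2d and T_Dysf against Acute-7d. A pseudocount of 0.1 ended the call of *Tox3* (-5.83) and gave 81 genes in Acute-7d against Acute-2d. A pseudocount of 10 called *Tox3* in T_Dysf against Acute-2d (-1.53) and over the 4 conditions (adjusted p = 0.0157 with limma), and gave 4 genes in Acute-7d against Acute-2d. Scaling to the 75th percentile shifted the median of all genes by -0.11 in Effector against Acute-2d, moved the share of calls that were higher from 51.9% to 40.7% in Effector against Acute-7d and from 49% to 35.8% in Effector against Acute-2d, and put *Tox4* at -0.07 in T_Dysf against Acute-2d and -0.11 in Effector against Acute-7d. Where no construction is named, the cause was not tested.

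The replicate numbers were not taken as pairs: over 6 pairs of conditions, the replicate differences of 12028 genes correlated at -0.199 to 0.197, with 2 pairs over 0.1. With the replicate block, *Tox3* in Effector against Acute-2d was no longer called (-3.96), *Tox* had an adjusted p of 0.0622 over the 4 conditions, and 891 genes were called in T_Dysf against Acute-7d. Results for the members that are not named here kept their direction and side of the threshold. Depth limits *Tox3*, counted in at most 27 reads.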

Other observations

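Follicular helper genes, which *Tox2* is known to act with in CD4 T cells, gave a mixed picture in these CD8 T cells, where 7 of the 8 listed were in the table. *Btla*, an inhibitory receptor of this list, was called lower in T_Dysf than in Acute-7d (log2 fold change -2.01, adjusted p = 0.0414 with limma), the only call of the list in that comparison, in which 5.57% of all genes were called. It held 69.9 and 60.5 normalized counts in the T_Dysf libraries, 289 and 242 in Acute-7d, 209 and 97.2 in Acute-2d, and 928 and 1036 in Effector. *Btla* was thus highest in Effector and lowest in T_Dysf. Among the exhaustion list, whose genes had no single order, the mean of *Cd160* was also highest in Effector (1190) and lowest in T_Dysf (543). In T_Dysf against Effector, *Maf* (2.24, adjusted p = 0.0486 with limma), a transcription factor that promotes *Il21*, and *Bcl6* (1.48, adjusted p = 0.0297 with limma), the lineage factor of follicular helper cells, were called higher. *Btla* (-3.89, adjusted p = 0.00759 with limma) and *Sh2d1a* (-1.29, adjusted p = 0.0019 with limma), the adaptor SAP, were called lower. In that comparison 9.22% of all genes were called. *Maf* held 55.7 and 78.2 normalized counts in Effector and between 236 and 727 in the other 6 libraries. In Effector against Acute-7d, *Maf* (-2.88) and *Bcl6* (-1.62) were called lower and *Btla* (1.89) higher, beside 8.06% of all genes. The list gave the same counts, 2 lower and 1 higher, in Effector against Acute-2d, beside 8.78%. *Il21* was listed at 0 in all 8 libraries. Without T_Dysf replicate 1 or without Acute-7d replicate 1, fewer genes of the list were called in each comparison that had calls. Fewer of all genes were called there as well. With a term for the RESUB prefix, 1 gene was called, lower, in T_Dysf against Effector, beside 1.59% of all genes. None was called in the other comparisons with that term, where 0.691% to 5.67% of all genes were called.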
